A study of Mus musculus with 6 samples.

Results

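The microRNA machinery was taken as 10 genes: the nuclear processor Drosha and its partner Dgcr8, the cytoplasmic processor Dicer1, the 4 Argonautes Ago1 to Ago4, and the 3 silencing adaptors Tnrc6a, Tnrc6b and Tnrc6c. They were chosen by name and role, with earlier results of these data known, from the 24264 genes of the table, where the Argonautes are listed as Eif2c1 to Eif2c4. All 10 had a row, and all 10 passed the filter on low values (at least 3 libraries with 1 RPKM, reads per kilobase of transcript, scaled to the mapped reads of the library), as did 13118 genes in all. Poly(A) RNA was sequenced from lumbar dorsal root ganglia of mouse embryos at E12.5 on a mixed C57/Bl6 x 129/SvEv background, in 3 control and 3 miR_cKO libraries. In miR_cKO both copies of the floxed microRNA cluster (miR-183, miR-96, miR-182) met Wnt1-Cre. Its promoter is active in dorsal neural tube and neural crest, the source of the ganglion's neurons and glia, so vessel, muscle or mesenchyme cells of other origin in the dissected tissue keep the cluster. Controls 1 and 3 were titled with the Cre and control 2 as wild type, and the labels do not say if the Cre controls held a floxed copy. Nor do they say if embryos were pooled or were littermates, so p-values measure only the spread between these libraries, which may be partly technical. The question was whether the loss of a single microRNA cluster changes the messages of the machinery that all microRNAs share.

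A microRNA is cut from its primary transcript in the nucleus by Drosha, an RNase III enzyme, held on the hairpin by the double-stranded RNA-binding protein Dgcr8. After export, Dicer1 cuts the hairpin to a short duplex, and an Argonaute keeps a single strand as its guide. The guided Argonaute pairs through the seed with sites in the 3 prime UTR of a message and recruits a Tnrc6 (GW182) protein, which brings in the deadenylases that shorten the message's tail. Ago2 is the Argonaute best known for cutting a target itself. In sensory ganglia the deleted cluster is abundant, and its microRNAs are made from a shared primary transcript.

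The mature sequences of the deleted microRNAs are shown because their seeds (bases 2 to 8, in capitals) define the sites looked for in the machinery's own messages. They come from RefSeq (GRCm38.p6, chromosome 6, minus strand), written 5′ to 3′, and lie at chr6:30169711-30169732 for miR-183-5p, chr6:30169506-30169528 for miR-96-5p and chr6:30165962-30165986 for miR-182-5p.
miR-183-5p: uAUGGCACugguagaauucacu
miR-96-5p: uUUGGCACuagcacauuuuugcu
miR-182-5p: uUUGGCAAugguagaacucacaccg
No 2 of the 3 share all seed bases. The seeds of miR-96 and miR-182 share every base but the last, so a site that pairs with bases 2 to 7 and has an A opposite base 1 (TGCCAAA) serves both.

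No member of the machinery passed the test: 0 of 10 had a limma adjusted p under 0.05, with 0 higher and 0 lower, where 0.061% of all tested genes passed (0.0534% higher and 0.00762% lower). Of the 10, 3 had a log2 change above 0 and 7 below, with a median of -0.039 on the log2(RPKM + 1) scale. Over all 13118 genes the median was -0.024 and 40.4% were above 0. In 9 of the 10 the log2 change was no larger than 0.14 in size, and their 95% intervals together ran from -0.32 to 0.39, which is 0.803-fold to 1.31-fold on that scale. Changes beyond these bounds lie outside the intervals, and smaller ones could not be told from 0. Ago1 was the exception in size: it was 1.30-fold higher, with an interval that did not include 0, and 1 of 10 members thus had an unadjusted p under 0.05, against 5.16% of all genes. Its adjusted p was 0.618. The groups did not overlap for 2 of the 10, Ago1 above and Dicer1 below the controls, and for 10.9% of all tested genes. In bulk ganglia, fewer cells of a type and less RNA per cell cannot be told apart.

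**Figure D1:**
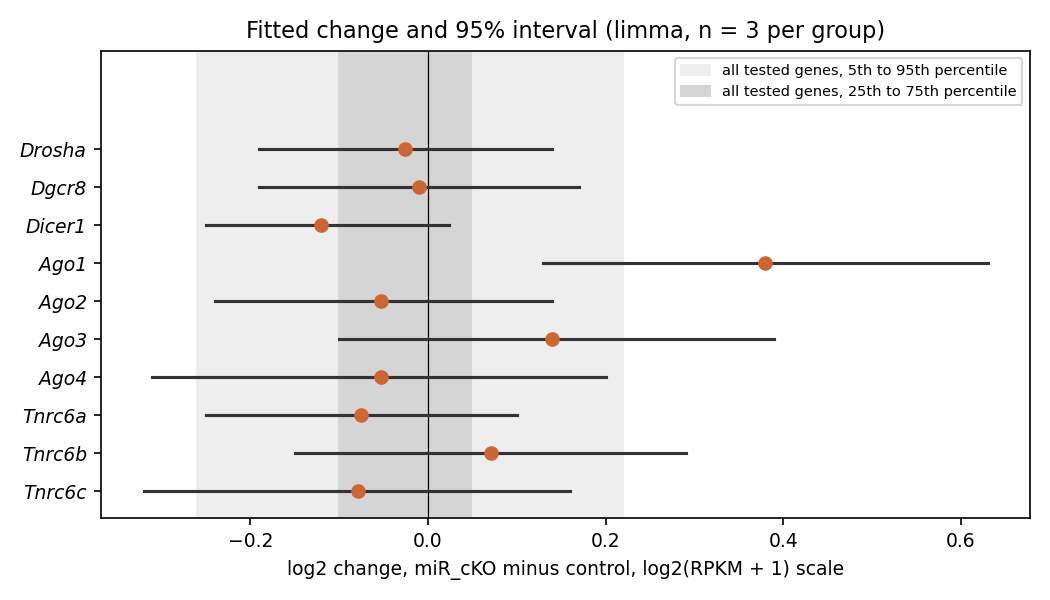
Fitted log2 change (miR_cKO minus control, horizontal axis) of each of the 10 genes, with points for estimates and lines for 95% intervals from limma (3 libraries per group), over grey bands for the percentiles of all tested genes. Only the interval of Ago1 (0.13 to 0.63) lies wholly on one side of 0.

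Drosha and Dgcr8, which form the nuclear Microprocessor, had nearly the same level in both groups. Drosha (chr15:12824815-12935291, plus strand, mm10) measured 37.3, 39.9 and 36.4 RPKM in the control libraries 1 to 3, against 35.4, 36.7 and 39.5 RPKM in those of miR_cKO. The groups overlapped over almost their whole range. Its log2 change was -0.026 (SE 0.069, 95% interval -0.19 to 0.14, limma adjusted p = 1 after rounding), and it changed sign with median centring of the libraries (0.0037). Dgcr8 (chr16:18253948-18289246, minus strand) measured 17.1, 17.6 and 17.7 RPKM in the control libraries, against 16.2, 17.0 and 19.0 RPKM in those of miR_cKO. The lowest and the highest of the 6 values were both in miR_cKO. The log2 change came to -0.0095 (SE 0.077, 95% interval -0.19 to 0.17), with the sign turned by median centring (0.020) and by upper quartile scaling (0.0029). As background, Drosha also cuts hairpins within the Dgcr8 message itself. The ratio of Drosha to Dgcr8 in RPKM averaged 2.17 ± 0.104 (SD, n = 3) for controls, against 2.14 ± 0.0591 (SD, n = 3) for miR_cKO. Trmt2a overlaps Dgcr8 on the opposite strand and the gene model Gm49776 on the same strand. No source used here says how the counting treated strand, so the Dgcr8 level may hold reads of these neighbours. The same limit applies to Ago2, which the protein-coding Chrac1 overlaps on the opposite strand. It also applies to Ago4, which a processed pseudogene overlaps on each strand.

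Dicer1 was slightly lower in every miR_cKO library than in every control. Dicer1 (chr12:104687742-104751952, minus strand), the enzyme that releases the mature duplex, measured 25.2, 25.4 and 24.4 RPKM in the control libraries 1 to 3, against 22.5, 22.6 and 23.9 RPKM in those of miR_cKO. The gap between the groups, from 23.9 to 24.4 RPKM, was small, and the control values were tight, with a coefficient of variation of 1.95%. The log2 change was -0.12 (SE 0.059, 95% interval -0.25 to 0.024), a ratio of 0.923, and did not pass (limma adjusted p = 1 after rounding). Of all tested genes, 20.7% had a lower log2 change, and 6.24% had groups that did not overlap with miR_cKO lower. The value was -0.086 with median centring.

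Among the Argonautes, Ago1 was highest in level and had the largest change. Ago1 (chr4:126435012-126468583, minus strand) measured 49.8, 53.7 and 42.3 RPKM in the control libraries 1 to 3, against 58.9, 61.6 and 69.3 RPKM in those of miR_cKO. Every miR_cKO library lay above every control, with miR_cKO 3 highest and control 3 lowest. The means were 48.6 ± 5.77 and 63.3 ± 5.39 RPKM (SD, n = 3 each). The log2 change was 0.38 (SE 0.11, 95% interval 0.13 to 0.63), above that of 98.1% of tested genes. By p it ranked 188 of 13118, and it did not pass after adjustment (limma adjusted p = 0.618). Groups that did not overlap with miR_cKO higher were found for 4.63% of tested genes.

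Ago2 (chr15:73095844-73184935, minus strand), the slicing Argonaute, measured 15.2, 15.3 and 15.8 RPKM in the control libraries, against 15.8, 15.3 and 13.4 RPKM in those of miR_cKO. Only miR_cKO 3, the library with the most Ago1, lay below the controls, and without it the log2 change of -0.053 became 0.015. Ago3 (chr4:126331704-126429556, minus strand) measured 2.42, 2.18 and 2.26 RPKM in the control libraries, against 2.93, 2.40 and 2.58 RPKM in those of miR_cKO. The groups overlapped, with 2 of 3 miR_cKO libraries above the highest control, and the log2 change was 0.14 (SE 0.10, 95% interval -0.10 to 0.39). Ago4 (chr4:126489541-126533472, minus strand) measured 3.53, 3.03 and 3.06 RPKM in the control libraries, against 3.25, 2.68 and 3.25 RPKM in those of miR_cKO. Its lowest value was in miR_cKO and its highest in a control, with a log2 change of -0.053. The 3 had a limma adjusted p of 1 after rounding.

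Ago3, Ago1 and Ago4 lie side by side on chromosome 4 on the same strand, 5.46 kb and 21 kb apart, while Ago2 is on chromosome 15. The 3 neighbours thus had log2 changes of 0.14, 0.38 and -0.053, and their mean levels were 2.46, 55.9 and 3.13 RPKM.

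The sum of the 4 Argonaute messages, on the RPKM scale, was 70.9, 74.1 and 63.4 in controls 1 to 3 and 80.9, 82.1 and 88.5 in miR_cKO 1 to 3. Leaving Ago1 out, the sum averaged 20.9 ± 0.359 (SD, n = 3) for controls, against 20.5 ± 1.39 (SD, n = 3) for miR_cKO. Ago1 made up 66.7 to 72.4% of the sum in controls and 72.8 to 78.3% in miR_cKO, and Ago2 20.6 to 24.9% and 15.1 to 19.6%. These shares are given without a test, since the members were chosen as a set. They also depend on the transcript lengths behind the values, and that of Ago1 could not be checked.

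**Figure D2:**
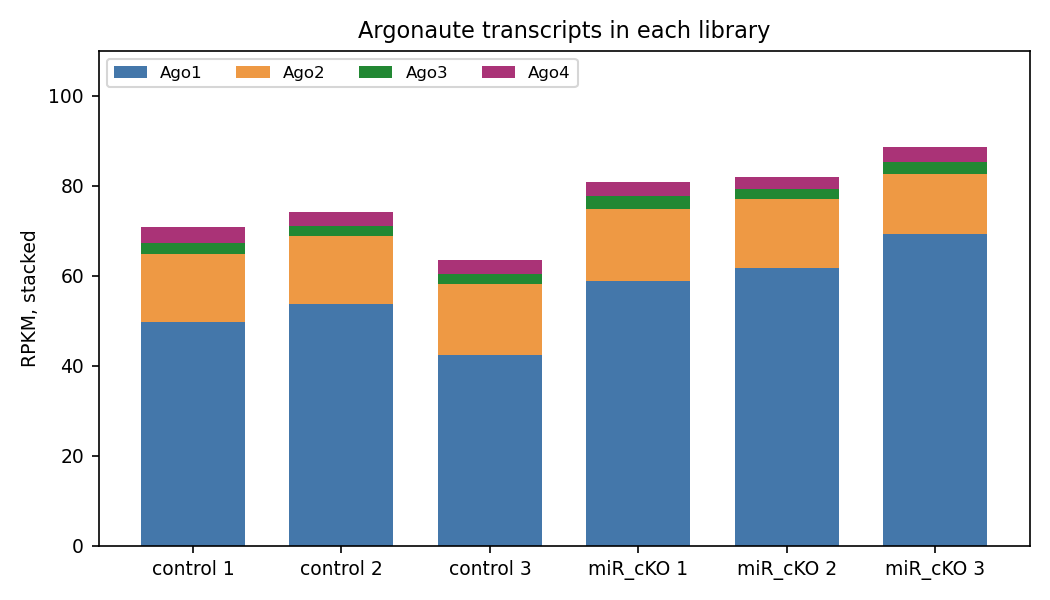
Stacked RPKM of Ago1, Ago2, Ago3 and Ago4 (vertical axis) in each of the 6 libraries (horizontal axis). The Ago1 part is 42.3 to 53.7 RPKM in controls and 58.9 to 69.3 RPKM in miR_cKO, and the other 3 parts add up to 19.2 to 22.0 RPKM in every library.

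The Tnrc6 adaptors, which link Argonaute to the deadenylases, had overlapping groups and did not pass the test. Tnrc6a (chr7:123123885-123195296, plus strand) measured 24.8, 23.8 and 24.1 RPKM in the control libraries, against 22.1, 21.6 and 25.2 RPKM in those of miR_cKO. Here miR_cKO 1 and 2 were below all controls and miR_cKO 3 above them. Its log2 change was -0.075 (SE 0.075, 95% interval -0.25 to 0.10). Tnrc6b (chr15:80711313-80941085, plus strand) measured 9.06, 8.46 and 8.47 RPKM in the control libraries, against 10.1, 8.08 and 9.41 RPKM in those of miR_cKO, with miR_cKO holding both extremes. Its log2 change was 0.071 (SE 0.094, 95% interval -0.15 to 0.29) and was -0.022 with weights for library quality. Tnrc6c (chr11:117654289-117763439, plus strand) measured 15.8, 15.4 and 18.2 RPKM in the control libraries, against 17.4, 14.3 and 14.9 RPKM in those of miR_cKO. The value of 18.2 in control 3 was the highest, and without that library the log2 change of -0.079 was -0.0075. The limma adjusted p of each was 1 after rounding. The sum of the 3 averaged 49.4 ± 1.56 RPKM (SD, n = 3) for controls, against 47.7 ± 3.23 RPKM (SD, n = 3) for miR_cKO.

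The order of levels was the same at its ends in all 6 libraries. Averaged over the 6 libraries and per length, Ago1 (55.9 RPKM) stood above Drosha (37.5), and Drosha above Dicer1 (24.0), with no overlap of their ranges over the libraries. Dicer1 and Tnrc6a (23.6 RPKM) could not be ordered beyond their spread. Nor could Dgcr8 (17.4) and Tnrc6c (16.0), or Tnrc6c and Ago2 (15.1). The range of Dgcr8 (16.2 to 19.0 RPKM) did lie above that of Ago2 (13.4 to 15.8 RPKM). Tnrc6b (8.92 RPKM) lay clear below Ago2, and Ago4 (3.13) clear below Tnrc6b. Ago4 was above Ago3 (2.46) within each of the 6 libraries although their ranges over the libraries overlapped. For comparison, the median tested gene was at 10.7 RPKM, 91.5% of tested genes were below Ago1 and 12.4% were below Ago3.

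**Figure D3:**
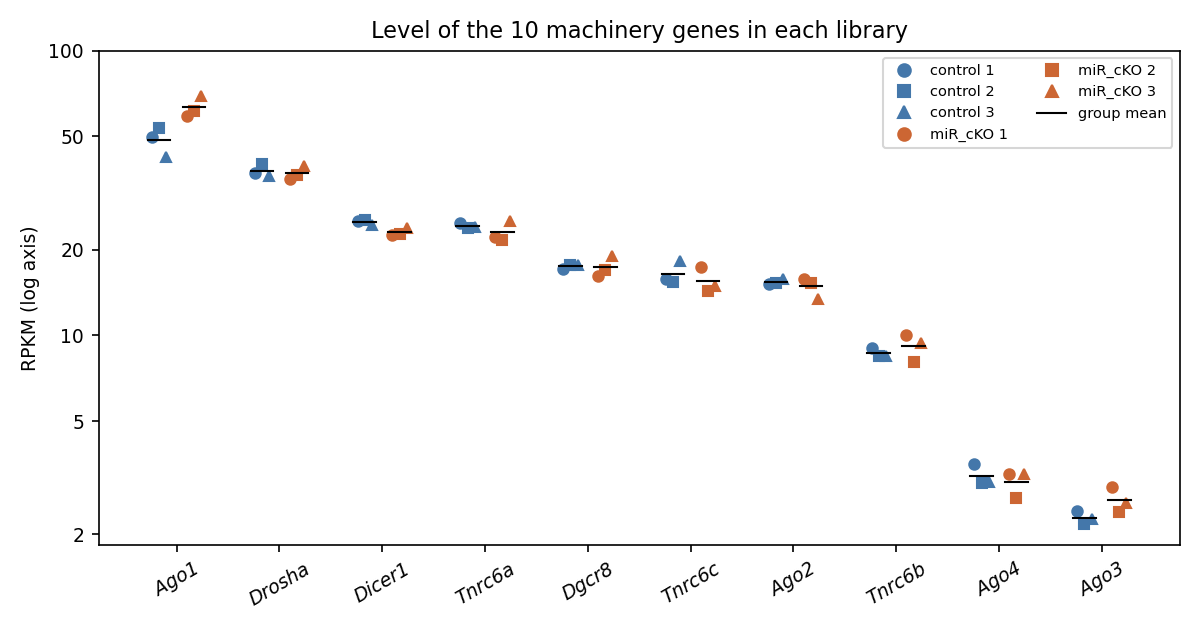
RPKM (vertical log axis) of each machinery gene in each library, with genes ordered by mean level, marker shape for the replicate number and black bars for group means. Ago1 and Dicer1 are the genes whose control and miR_cKO points do not overlap.

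Levels between genes depend on the transcript length the authors used. The steps between the values imply about 7.81 kb for Ago2 and 7.43 kb for Ago3, against 13.8 and 15.6 kb for their main transcripts in GENCODE M21. For Ago4, Dicer1, Drosha, Dgcr8 and the Tnrc6 genes the implied length was close to GENCODE, for example 9.56 against 9.85 kb for Dicer1. The place of Ago2 and Ago3 in the order above rests on these shorter models. For Ago1 no length was implied, so its place at the top rests on a length that could not be checked.

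The read support was ample for most members. Whole reads recovered from these steps were 338 to 488 per library for Ago3 and 377 to 486 for Ago4, and 1480 or more for Dgcr8, Ago2, Tnrc6c, Tnrc6b, Drosha, Tnrc6a and Dicer1, with 5866 as the highest. Counting alone gives a coefficient of variation of 5.0% for Ago3 and 1.41% for Dicer1. The spread within miR_cKO was 10.3% for Ago3 and 3.36% for Dicer1. For Ago1 no whole reads were recovered. Its RPKM, GENCODE length and the estimated depth give about 6153 reads in its lowest library and 10410 in its highest. Because of the rounding of the file, the recovery did not accept genes with reads as high as the latter. At this length it could therefore not succeed for Ago1. The read figures of this paragraph cover counting error only.

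Of the 10 machinery messages, 5 hold seed sites of the deleted microRNAs in their own 3 prime UTR. Sites were searched on the message strand of the 3 prime UTR of the main transcript in GENCODE M21 (mm10), as GTGCCAT or TGCCATA for miR-183, GTGCCAA or TGCCAAA for miR-96 and TTGCCAA or TGCCAAA for miR-182; an 8mer (GTGCCATA, GTGCCAAA or TTGCCAAA) joins both forms and was counted as 1 site. There were 20 sites, 5 of them 8mers: 7 in Ago2, 6 in Tnrc6b, 3 each in Ago1 and Ago3 and 1 in Tnrc6a. None of these letters were found in the UTRs of Ago4, Dicer1, Drosha, Dgcr8 and Tnrc6c. UTR length went with this. A site was present in 33.6% of all 12035 tested genes with a UTR, in 74.7% of those with a UTR about as long as that of Ago1 (4491 bases) and in 97.8% and 100% of those near Ago2 (11064 bases) and Tnrc6b (11609 bases), but also in 69.6% of those near Dicer1 (3851 bases), which had none. A UTR as short as that of Drosha (168 bases) held a site in 5.35% of genes.

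The sites of Ago1 and the 8mers of the other members are printed with 9 bases on either side, in the strand of the message, with the site in capitals. The 3 sites of Ago1 lie in its last exon, exon 19, at chr4:126438259-126438266 (8mer of miR-182), chr4:126436964-126436970 (7mer of miR-183) and chr4:126436665-126436671 (7mer of miR-182).
Ago1 miR-182 8mer: ttgagtctaTTGCCAAAatctggaaa
Ago1 miR-183 7mer: ggtatttatGTGCCATtcatgaaat
Ago1 miR-182 7mer: caaacagtgTTGCCAAgcctcagct
Ago2 miR-182 8mer: aaacatggtTTGCCAAAcctataagc
Ago2 miR-183 8mer: aatgtgtgaGTGCCATActgtgatct
Ago3 miR-182 8mer: tcccagctcTTGCCAAAtactcctac
Tnrc6b miR-96 8mer: ttgcatccaGTGCCAAAggtacgttg
The Ago2 8mers are at chr15:73106679-73106686 and chr15:73101594-73101601, the Ago3 8mer at chr4:126333195-126333202 and the Tnrc6b 8mer at chr15:80935536-80935543. Part of these sites may lie outside the transcripts behind the values. If the length missing from the implied transcripts is at the 3 prime end, which was not tested, the UTR of Ago2 ends after 5.07 kb and that of Ago3 after 4.58 kb. That leaves 3 of the 7 sites of Ago2, without its miR-183 8mer at 5307 bases past the stop codon, and 0 of the 3 sites of Ago3, whose 8mer begins at 12272 bases. Tnrc6b keeps 5 of 6 sites and Tnrc6a its site, and for Ago1 no length was implied.

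Members with sites did not move as a block. The 4 with 3 or more sites had log2 changes of 0.38 (Ago1), 0.14 (Ago3), 0.071 (Tnrc6b) and -0.053 (Ago2), a median of 0.11, where the 497 tested genes with as many sites had a median of 0.035. Ago2, with the most sites in GENCODE, had the lowest of the 4. On the implied lengths Tnrc6b has the most sites and Ago3 has none, so the make-up of these 4 depends on the transcript models. Tnrc6a, with 1 site, was at -0.075, and the 2619 genes with 1 site had a median of -0.0069. The 5 members without a site ranged from -0.12 (Dicer1) to -0.0095 (Dgcr8), with a median of -0.053 beside -0.036 in 7992 genes without a site. These medians rest on few members, take no account of UTR length or level and carry no test.

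**Figure D4:**
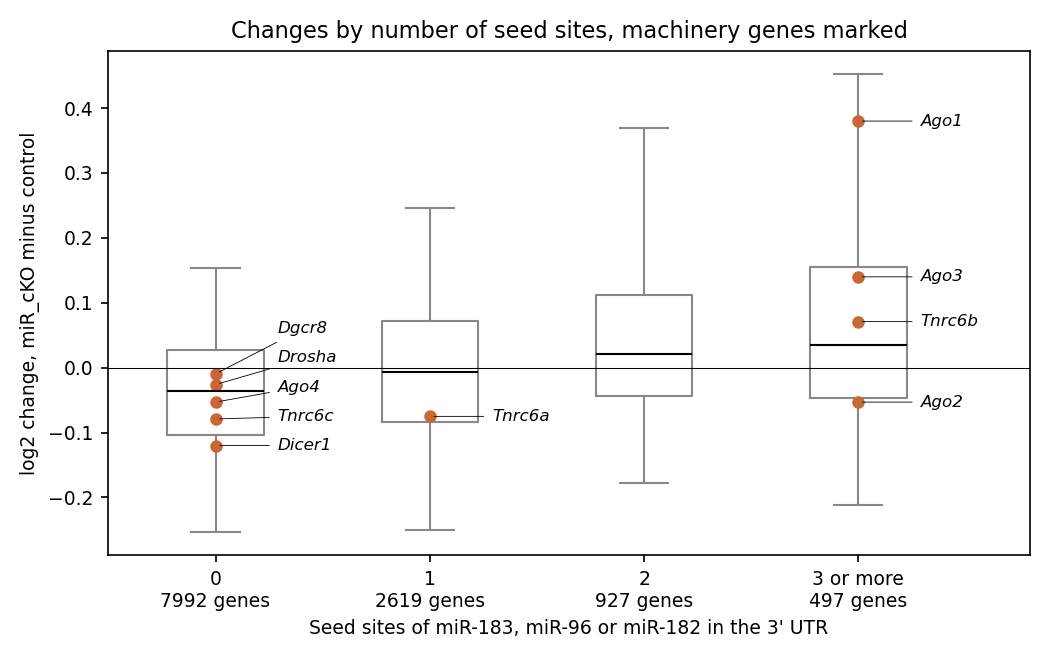
Log2 change (vertical axis) of all tested genes with a 3 prime UTR, by number of seed sites (horizontal axis); boxes show quartiles and medians, whiskers the 5th and 95th percentiles, and orange points the machinery genes. Ago1 lies above the upper quartile of genes with 3 or more sites and Ago2 near their lower quartile.

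Of the partners that work with the machinery, 98 genes in 8 lists were followed, and 0 of the 92 tested had a limma adjusted p under 0.05 (0.061% of all genes did). At an unadjusted p under 0.05, 5 were higher and 1 lower (all tested genes: 2.85% higher and 2.31% lower). Among the 5, Lin28a, could be tested only because it was higher in miR_cKO. Without genes that were under 1 RPKM in all libraries of a group (1 partner and 15 of all genes), 4 of 91 partners were higher and 1 lower, which is 4.4% and 1.1%, beside 2.83% and 2.27% of all genes left. Over all 92 tested partners, Lin28a included, the median log2 change was -0.0036. Groups did not overlap for 5 of these 92 with miR_cKO higher and for 3 with miR_cKO lower. Of all tested genes, 4.63% and 6.24% had such groups, so lack of overlap in a partner named below is a description only. The lists of primary transcript processing (12 tested, median -0.0022) and of export and Dicer partners (5 tested, median -0.025) held no gene at an unadjusted p under 0.05. In the latter, the Dicer partner Prkra was at 29.0 and 28.0 RPKM and Ran, the GTPase that drives export, at 146 and 157 RPKM (control and miR_cKO means). Among primary transcript factors, the hairpin-binding protein Khsrp was at 27.7 ± 8.63 and 33.3 ± 3.38 RPKM (SD, n = 3 each), with overlapping groups, and Mettl3, the writer of N6-methyladenosine, had a log2 change of 0.093. The Khsrp value rested on single controls: its log2 change of 0.29 was 0.52 without control 2 (limma adjusted p = 0.524) and 0.11 without control 3.

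The list of Argonaute loading and transport had 9 of 13 tested genes above 0 and 0 called. It included 2 subunits of the phosphatase that removes phosphates from Argonaute. Ankrd52, its regulatory subunit, measured 13.1, 14.8 and 14.3 RPKM in the control libraries, against 25.4, 21.3 and 18.4 RPKM in those of miR_cKO. The groups did not overlap, with miR_cKO 1 highest. Its fitted log2 change came to 0.58 (SE 0.12, limma adjusted p = 0.263). Ppp6c, the catalytic subunit, measured 27.2, 29.2 and 26.7 RPKM in the control libraries, against 31.5, 31.7 and 32.5 RPKM in those of miR_cKO, again without overlap; the log2 change was 0.20 (SE 0.061) and the limma adjusted p = 0.721. Their UTRs hold 1 site (Ankrd52) and 2 sites (Ppp6c) of the cluster, where 64.4% and 61.7% of tested genes with a UTR of like length hold a site.
Ankrd52 miR-96 and miR-182 7mer: ctctccttaTGCCAAAggaaacccc
Ppp6c miR-96 7mer: gctgggcatGTGCCAAtaatattct
They lie at chr10:128393111-128393117 (plus strand) and chr2:39195290-39195296 (minus strand).

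Among effectors, the deadenylation list had 0 of 19 called (median 0.014) and the decapping and repression list 0 of 15 (median -0.031). The partner nearest to the threshold in the former was Paip2, a repressor of the poly(A)-binding protein. It measured 99.6, 103 and 99.5 RPKM in the control libraries, against 133, 138 and 141 RPKM in those of miR_cKO, with a clear gap between tight groups. The log2 change was 0.44 (SE 0.060, limma adjusted p = 0.0881). Tob2, an adaptor of the deadenylase complex, had a log2 change of -0.12. The decapping cofactor Dcp1b was at 3.72 ± 0.0682 and 3.22 ± 0.0837 RPKM (SD, n = 3 each), without overlap but at a limma adjusted p of 1 after rounding, and Patl1 had a log2 change of -0.089.

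In the tailing and decay list, 0 of 15 passed, with 5 above 0 and 10 below (median -0.014). Parn, named after its value was seen, was the 1 partner lower at an unadjusted p under 0.05. Its mean was 13.9 RPKM in controls and 11.9 RPKM in miR_cKO, without overlap of the groups. The log2 change of Parn was -0.20 (limma adjusted p = 0.868). Tsnax, a partner of translin, measured 35.6, 36.9 and 36.3 RPKM in the control libraries, against 50.8, 48.9 and 47.4 RPKM in those of miR_cKO. All miR_cKO libraries were well above all controls, by 0.42 on the log2 scale (SE 0.057, limma adjusted p = 0.0881). With weights for library quality Paip2 and Tsnax passed (limma adjusted p = 0.0268 and 0.0281), and in no other setting. The Tsnax UTR holds an 8mer of miR-182 at chr8:125033691-125033698 (plus strand), and 8.59% of tested genes with a UTR of like length hold an 8mer of the cluster.
Tsnax miR-182 8mer: ctagcgatgTTGCCAAAgaaaaagaa
Lin28a, which blocks the maturation of let-7 microRNAs, was near the floor: 0.645, 0.949 and 0.462 RPKM in controls and 1.53, 2.38 and 1.60 RPKM in miR_cKO. The groups did not overlap, and the difference of 0.75 on the log2 scale (SE 0.17, limma adjusted p = 0.402) understates the ratio of means of 2.68 because of the pseudocount. This gene passed the low-value filter only through its miR_cKO libraries, so it had to differ to be tested at all.

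Of the 91 partners with a UTR, 28 hold a site (30.8%, beside 33.6% of all tested genes). Of the 28, 15 were above 0 and 13 below, with a median of 0.021, beside -0.01 for the 63 without a site and 0.0041 for all genes with a site. The 5 partners with the smallest p among those above 0 (Ankrd52, Ppp6c, Paip2, Tsnax and Lin28a) were all among the 28. These 5 were picked by their values, so their overlap with the 28 carries no test. Lin28a, which is also in the median of the 28, passed the low-value filter only through its miR_cKO libraries. The partner with the most sites, the deadenylase Cnot6l with 8, was at a log2 change of -0.036. Dcp1b (1 site) and the cap-binding protein Eif4e2 (an 8mer, log2 change -0.052) had all miR_cKO libraries below all controls. Partners with an 8mer of the cluster and smaller log2 changes were Fxr1 (0.12), Tut4 (0.11), Ran (0.094), Lsm14a (0.049), Ddx6 (0.013) and Fmr1 (-0.013). The partner sequences printed above are all from genes that were higher in miR_cKO. Cnot6l, Eif4e2, Tut4, Lsm14a, Ddx6 and Fmr1 are named here after their values were seen.

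Of 15 further modulators of the silencing complex 13 were tested and 0 called (median 0.0059), with Fxr1, a translational regulator of the fragile X family, at a log2 change of 0.12 and the helicase Mov10 at -0.27, which ranged from -0.45 without control 1 to -0.14 without miR_cKO 1. Trim71 and Dnd1 did not pass the filter, with 1.16 and 1.21 RPKM as their highest values. The germline Argonaute relatives Piwil1, Piwil2 and Piwil4 were at 0.139 RPKM or less in every library.

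**Figure D5:**
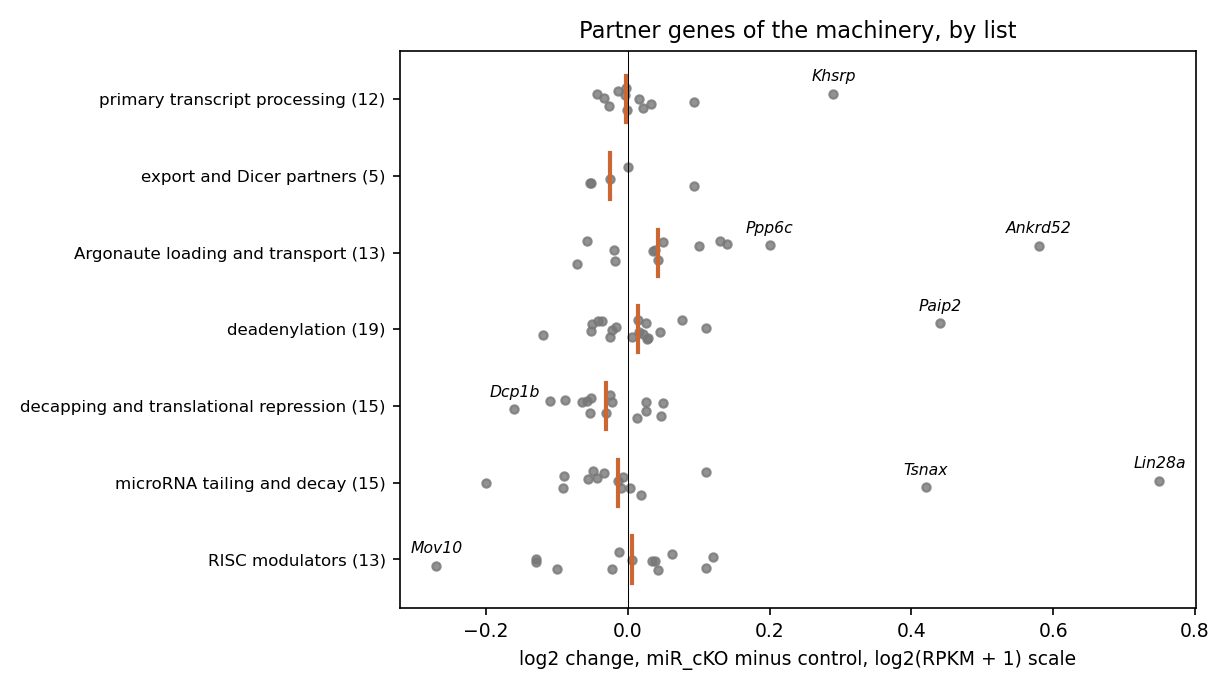
Log2 change (horizontal axis) of each tested partner gene, by list with the number tested in parentheses (vertical axis); orange bars are list medians, and labels mark named genes beyond 0.15 in size. Every list median lies between -0.031 and 0.042, with Lin28a, Ankrd52, Paip2 and Tsnax farthest to the right.

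The tissue and the libraries were checked with marker lists. All 10 sensory neuron markers were above 1 RPKM in at least 1 library and summed to 1033 to 1398 RPKM in controls and 1080 to 1620 RPKM in miR_cKO, and the 8 glial markers to 823 to 1096 and 865 to 982 RPKM. Muscle markers summed to 32.7, 189 and 144 RPKM in controls 1 to 3 and to 31.3 to 44.6 RPKM in miR_cKO, with 0 of 10 at 0 in all libraries and 8 of 8 tested members below 0 in log2 change. Mesenchyme markers, also with 0 of 10 at 0, summed to 234, 391 and 429 RPKM in controls and 205 to 304 RPKM in miR_cKO, with 10 of 10 below 0 and a median log2 change of -0.37. The 10 cell cycle genes were all above 0 in log2 change (median 0.13), with sums of 375 to 520 RPKM in controls and 351 to 558 RPKM in miR_cKO. The 5 red cell markers in the table were all above 0 (median 0.24), and their sums varied widely, from 1751 to 9804 RPKM in controls and 3407 to 6752 RPKM in miR_cKO. Endothelium markers summed to 80.3 to 93.6 and 78.6 to 112 RPKM and macrophage markers to 10.4 to 16.3 and 7.80 to 15.9 RPKM. No gene of these 8 lists passed the test, so the directions are descriptions. The part of these tissues in the values of Ago1 and Dicer1 was not tested. With controls 2 and 3 left out, which leaves 1 control, the log2 change was 0.34 for Ago1 and -0.13 for Dicer1. Mir183, Mir96 and Mir182 were listed at 0 in all libraries, so they check no label. Poly(A) libraries hold few precursors, but the cause of these values was not tested. Wnt1 was at 0.147 to 1.38 RPKM in controls and 0.319 to 4.56 RPKM in miR_cKO. The estimated depth was 20.1 to 24.2 M reads (M, mega) per library.

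The genes most like the machinery were sought by its mean deviation over the 6 libraries, which was small: 0.0092, -0.0097 and -0.027 in controls 1 to 3 and 0.030, -0.055 and 0.052 in miR_cKO 1 to 3 (log2). The closest were Zfp560, Slmo1 and 1810013L24Rik, with root mean square differences of 0.0127, 0.0129 and 0.0139 on the log2 scale over 6 libraries. The members themselves were farther from their own mean, from 0.0626 for Drosha to 0.212 for Ago1. The closest genes were picked for a small difference and the members were not, so this contrast was set by the search.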

How the data were processed

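Lumbar ganglion RNA of 6 libraries was measured as in the opening. The submitters' processing notes name Bowtie as aligner and mm10 as build; version, counter and annotation: not given in the sources used here. A single table of 24264 genes by 6 columns, written with a decimal comma and no unit, was deposited by the authors. Its numbers were taken as RPKM, because the deposited values of each gene are integer multiples of a step, and longer transcripts have smaller steps (rho -0.939 by Spearman, a description across 1138 genes). They could be FPKM instead. Whole reads, within 0.01 read plus the rounding of the file, were recovered for 97.1% of tested genes. No column was unused.

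Values were transformed to log2(RPKM + 1), which understates changes of low genes. Genes with 1 RPKM or more in at least 3 libraries were tested with limma 3.58.1 in R 4.3.3 (trend and robust settings, all 6 libraries, Benjamini-Hochberg adjustment over 13118 genes, threshold 0.05, two-sided); the code was tested on simulated data. Intervals are limma's 95% intervals, not adjusted for multiple genes. GENCODE M21 gave positions and UTRs; 20883 names were symbols there and 1732 matched through a RefSeq synonym. Python 3.11.15 and matplotlib 3.10.9 did the rest.

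Members and lists were chosen with earlier results of these data known. The 10 members, the 2 genes of smallest p in each partner list (none having passed), the 3 genes most like the members, and the label checks are named.

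Replicate numbers do not pair the libraries in the labels, so the main fit has no block. The alternatives were other pseudocounts, filters, scalings and variance settings, array weights, a replicate block and left-out libraries.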

Additional observations from a re-analysis of the deposited data

How the results depend on the processing

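The number of libraries, 3 a group, limits the precision. By limma, 0 members were called in each of the 15 other settings run, of 10 tested or, with the 5 RPKM filter, of 8; the lowest adjusted p of any member was 0.254 (Ago1, with array weights), and that of Ago1 reached 1. Ago1 kept its direction in each setting, from 0.28 without control 3 to 0.45 without control 2. Of all 13118 genes 8 were called, while median centring gave 2, array weights gave 34, and upper quartile scaling, no trend or robust setting and the replicate block gave 0 (698, 709 and 847 genes at an unadjusted p under 0.05). Leaving out controls 2 and 3 gave 0 (395 at an unadjusted p under 0.05), but leaves 1 control, whose spread is assumed to be that of miR_cKO, so its lack of calls says nothing about stability. Leaving out 1 library gave 0 to 2. Of the 92 partner genes, array weights called 2 and every other setting 0, the replicate block included. Same-numbered libraries had correlations of their deviations of 0.359, 0.330 and -0.221, and libraries of unlike number had values from -0.7 to 0.524. Deviations from a mean of 3 libraries depend on each other, so these values cannot decide if the numbers pair the libraries. The block called 0 members and 0 genes.

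Directions of small changes turned. Drosha was at 0.0037 with median centring, and Dgcr8 at 0.020 there, at 0.0029 with upper quartile scaling and at 0.022 without controls 2 and 3. Tnrc6b was at -0.022, Zfp560 at -0.0042, Slmo1 at -0.030 and 1810013L24Rik at -0.0018 with array weights. Without controls 2 and 3, Tob2 was at 0.13, Mov10 at 0.084 and Slmo1 at -0.016. With 1 library left out, the range was -0.10 to 0.015 for Ago2, -0.089 to 0.016 for Ago4, -0.069 to 0.011 for Drosha, -0.073 to 0.038 for Dgcr8, -0.00068 to 0.064 for Zfp560 and -0.026 to 0.039 for Slmo1; with no turn of sign it was 0.0095 to 0.15 for Tnrc6b, -0.14 to -0.035 for Tnrc6a, -0.16 to -0.0075 for Tnrc6c, 0.085 to 0.19 for Ago3, -0.25 to -0.016 for Tob2, 0.029 to 0.21 for Ran, 0.042 to 0.12 for Mettl3, -0.07 to -0.021 for Prkra, -0.15 to -0.05 for Patl1 and 0.019 to 0.068 for 1810013L24Rik. The cause was not tested. The planned count test on recovered reads was not run, because the table holds no counts and no whole reads were recovered for Ago1. The stricter filter gave no value for Ago3, Ago4, Dcp1b, Lin28a, Mov10 and Zfp560.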

Other observations

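The spread between libraries was larger in miR_cKO than in control for 9 of 10 machinery genes (SD of log2 values, 3 libraries a group), Ago1 being the exception, and for 53.1% of all tested genes. The contrast was widest for Ago2, Dgcr8 and Tnrc6a: in controls the coefficient of variation was 2.12%, 1.99% and 2.04%, and in miR_cKO 8.64%, 8.50% and 8.48%. It was narrow for Drosha (4.78% in controls and 5.66% in miR_cKO), Ago4 (8.81% and 10.8%) and Tnrc6c (9.33% and 10.7%). For Ago1 it was reversed (11.9% and 8.51%). Counting alone gives a coefficient of variation of 1.97% for Ago2, 2.51% for Dgcr8 and 1.53% for Tnrc6a, so their control spreads were near counting error. The members were measured in the same libraries, so the 9 are not separate observations. These values rest on 3 libraries each and carry no test.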
